A study of Homo sapiens with 6 samples.

Results

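The metallothionein and copper handling genes described here were 10 of the 16330 genes in the deposited count table: MT1X, MT1E, MT2A, MTF1, SLC31A1, ATP7A, ATP7B, FDX1, ATOX1 and CCS. The 10 genes were taken by symbol from the gene-level table (NCBI gene IDs 4501, 4493, 4502, 4520, 1317, 538, 540, 2230, 475 and 9973 in this order), and their 18 RefSeq transcripts in the count table were summed per gene. RNA came from HN12, a cell line of human head and neck squamous cell carcinoma, in DMEM with serum. Cells received CPI-613 in 3 libraries and DMSO (Control) in 3 libraries, for 24 h in both groups. CPI-613, also called devimistat, is a lipoic acid analogue aimed at the mitochondrial pyruvate and 2-oxoglutarate dehydrogenases. The labels state no dose. The labels do not say whether the libraries of a group came from separate cultures. The p-values below set the group difference only against the variation between these libraries within a group, and that variation may be technical. Because the samples are bulk RNA from 1 line, fewer cells with a transcript and less of it per cell cannot be told apart.

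Metallothioneins are small cysteine-rich proteins that bind zinc and copper. Their genes lie in a cluster and are switched on by the zinc-sensing factor MTF1, which binds metal response elements, and also by glucocorticoids and oxidants. Copper enters cells through CTR1 (SLC31A1), is handed by the chaperone ATOX1 to the copper pumps ATP7A and ATP7B and by the chaperone CCS to superoxide dismutase 1, and ferredoxin 1 (FDX1) takes part in protein lipoylation and in the toxicity of copper ionophores.

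Depth was 11531942 to 15486513 counts per library. The squamous markers KRT5, KRT14, KRT6A, KRT17, TP63, SFN, CDH1, EPCAM, DSG3 and ITGB4 were all detected, and summed to 3810 to 7520 FPKM in CPI-613 libraries and 5290 to 7490 FPKM in Control libraries. FPKM, the unit taken for the deposited gene-level table, scales counts by transcript length and library depth. Of 5 leukocyte markers 3 were listed, with summed levels of 1.88 to 3.24 FPKM in CPI-613 libraries and 14.6 to 26.4 FPKM in Control libraries. CD14 made up most of the Control sum, at 13.5 to 25.8 FPKM, while PTPRC was at most 0.06 FPKM in CPI-613 libraries and 0.07 FPKM in Control libraries. Of 5 fibroblast markers 2 were listed, summing to 5.71 to 6.09 FPKM in CPI-613 libraries and 6.47 to 7.94 FPKM in Control libraries, and the 4 endothelial markers stayed at or below 0.08 FPKM in sum in CPI-613 libraries and 0.63 FPKM in Control libraries. Their part in the results was not tested.

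The promoters of MT1X and MT2A are shown because MT1X was the metallothionein that fell and MT2A the most abundant one. Each run is the 250 bases before the RefSeq gene start on the plus strand, from RefSeq's annotation of GRCh38.p14, at chr16:56682220-56682469 for MT1X and chr16:56608334-56608583 for MT2A. Capitals mark matches, on either strand, to the core of the metal response element, written as TGCACNC or TGCGCNC.
MT1X: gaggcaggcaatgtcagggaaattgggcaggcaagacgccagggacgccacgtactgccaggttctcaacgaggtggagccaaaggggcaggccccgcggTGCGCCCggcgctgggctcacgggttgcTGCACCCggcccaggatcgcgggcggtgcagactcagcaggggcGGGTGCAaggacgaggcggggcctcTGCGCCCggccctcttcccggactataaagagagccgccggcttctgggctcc
MT2A: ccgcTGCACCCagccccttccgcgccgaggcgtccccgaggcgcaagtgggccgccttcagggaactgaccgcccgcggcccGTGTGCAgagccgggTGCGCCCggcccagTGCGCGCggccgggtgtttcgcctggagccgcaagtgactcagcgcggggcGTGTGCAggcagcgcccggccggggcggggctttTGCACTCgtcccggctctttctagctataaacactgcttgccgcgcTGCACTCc
The MT1X window held 4 matches and the MT2A window 7, none overlapping another. At least 4 matches occurred in 0.37% and at least 7 in 0.0313% of the 35116 RefSeq promoter windows of the same length, and 24.8% held at least 1. RefSeq promoter windows were matched for 9 of the 10 genes, all but MT1E. ATOX1 and CCS had 2 matches each, which overlapped each other on opposite strands, 1 of the 3 ATP7B windows had 2, and MTF1, SLC31A1, ATP7A and FDX1 had 0. A match describes letters in this window and is not a measured binding site.

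By FPKM, which allows levels of different genes to be compared, the 10 genes spanned a wide range. MT2A stood highest, at 1287 to 2308 FPKM in CPI-613 libraries and 1051 to 1568 FPKM in Control libraries. MT1E followed at 109 to 264 FPKM in CPI-613 libraries and 209 to 326 FPKM in Control libraries. ATOX1 measured 82.2 to 137 FPKM in CPI-613 libraries and 112 to 140 FPKM in Control libraries. MT1X measured 10.45 to 25.4 FPKM in CPI-613 libraries and 70.5 to 171 FPKM in Control libraries, so that it overlapped SLC31A1 (16.2 to 19.2 FPKM) with CPI-613 and ATOX1 in Control. CCS measured 30.4 to 38.7 FPKM in CPI-613 libraries and 27.6 to 36.4 FPKM in Control libraries, and SLC31A1 17.5 to 18.3 FPKM in Control libraries. FDX1 measured 4.69 to 5.29 FPKM with CPI-613 and 4.63 to 6.07 FPKM in Control, and MTF1 1.65 to 4.17 FPKM with CPI-613 and 2.96 to 3.95 FPKM in Control. The copper pumps were lowest, ATP7A at 0.19 to 1.08 FPKM with CPI-613 and 0.55 to 1.59 FPKM in Control, and ATP7B at 0.35 to 0.52 FPKM with CPI-613 and 0.47 to 0.75 FPKM in Control. Neighbours in this order that overlapped over the libraries were MT1E with ATOX1 and MT1X with SLC31A1 under CPI-613, MT1X with ATOX1 in Control, and ATP7A with ATP7B in both groups. The FPKM of MT2A corresponded to a length of 166 bases and those of MT1X to 169 bases (medians over the libraries). Over 895 genes with a single transcript this implied length fell short of the annotated transcript by a median of 266 bases (quartiles 236 and 341), so FPKM of such short mRNAs depend strongly on that subtraction.

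**Figure D1:**
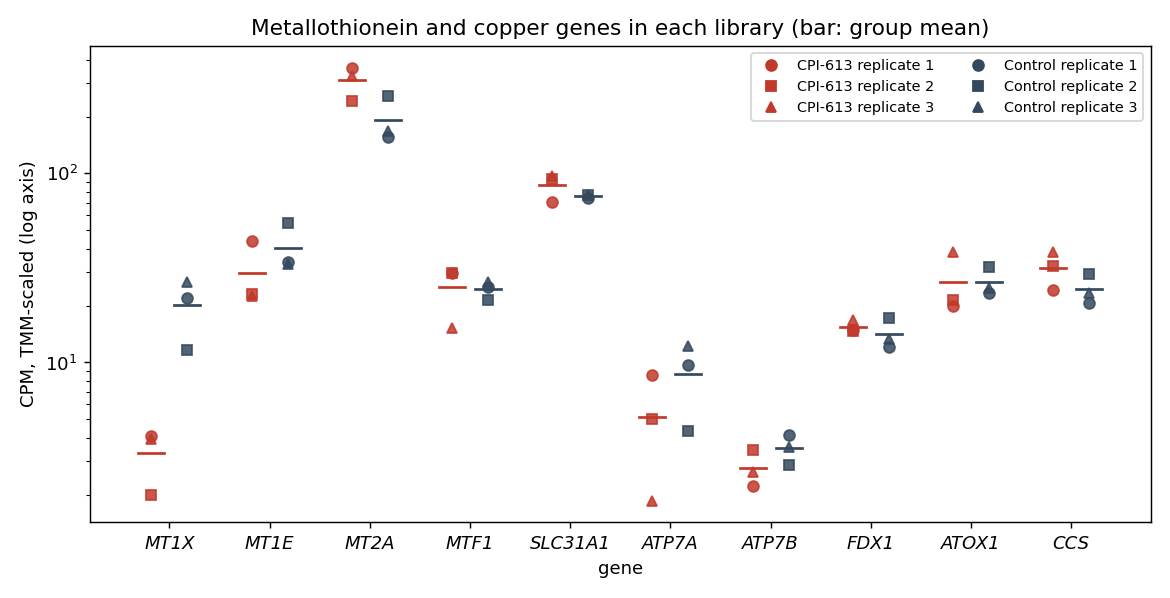
CPM (counts scaled to library size after TMM scaling, which aligns the bulk of genes between libraries; log axis) of the 10 genes in each of the 3 CPI-613 libraries (red, left in each pair) and 3 Control libraries (dark, right), with a bar at the group mean. MT1X is the one gene whose groups do not overlap, at 2 to 4.06 CPM with CPI-613 and 11.7 to 26.7 CPM in Control.

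The comparison of CPI-613 with Control asks how transcripts of metal handling differ after 24 h with the compound. Of the 10 genes MT1X fell, none rose and 9 did not pass the test. The test was edgeR's quasi-likelihood test with Benjamini-Hochberg adjustment over all 12671 genes tested, at a threshold of 0.05, and all 10 genes entered it. Over all genes tested, 3.18% were called, 1.94% higher and 1.24% lower. The groups did not overlap in 1 of the 10 genes, which was lower with CPI-613, while they did not overlap in 21% of all genes tested, 11.8% higher and 9.17% lower. Before adjustment, MT2A was higher and MT1X lower with p under 0.05, 2 of the 10 genes, against 14.4% of all genes, 8.45% higher and 5.93% lower. The median log2 fold change was 0.01 for the 10 genes and 0.02 for all genes. Scaled by library size only, the median of all genes was -0.17, and 46.9% of the calls were higher, where TMM gave 61%.

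Gene positions are those of RefSeq's annotation of GRCh38.p14. MT1X encodes metallothionein 1X and lies on chromosome 16 at 56682470 to 56684196. It measured 4.06, 2 and 3.95 CPM in CPI-613 replicates 1 to 3, against 21.9, 11.7 and 26.7 CPM in Control replicates 1 to 3. These values rest on 57, 26 and 51 counts with CPI-613 and 280, 151 and 350 counts in Control. Each CPI-613 library lay below each Control library, and Control replicate 2 was the lowest of its group. The log2 fold change was -2.59 (SE 0.43, 95% interval -3.60 to -1.57), a level 6.01-fold lower with CPI-613 (edgeR, Benjamini-Hochberg adjusted p = 0.0269). The estimate lay between -3.13 and -2.32 over 25 alternatives, with adjusted p between 6.97e-07 and 0.138. The call ended without CPI-613 replicate 2 (log2 fold change -2.32, edgeR adjusted p = 0.138), without Control replicate 1 (-2.52, edgeR adjusted p = 0.133) and without Control replicate 3 (-2.33, edgeR adjusted p = 0.129). Those fits called 7, 0 and 0 of all genes in that order, so hardly any gene passed in them. The GC and length trend, described below, was also removed in fits added after seeing the data. There MT1X missed the threshold only without CPI-613 replicate 2 (-2.4, edgeR adjusted p = 0.0549). That fit called 605 of all genes.

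**Figure D2:**
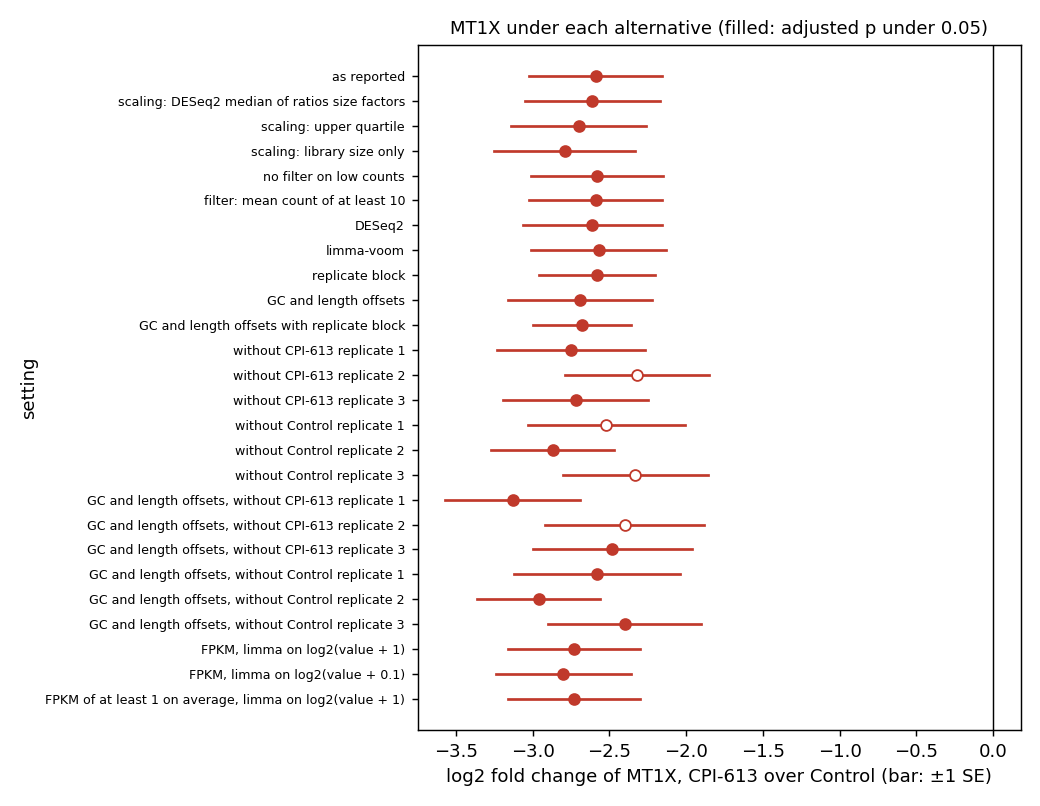
Log2 fold change of MT1X (CPI-613 over Control, bar ±1 SE) as reported and under each alternative, filled where the adjusted p is under 0.05. All 26 estimates lie between -3.13 and -2.32, and 4 of them, each with a library left out, are not past the threshold.

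MT2A, metallothionein 2A, lies on chromosome 16 at 56608584 to 56609497. It measured 363, 242 and 326 CPM in CPI-613 replicates 1 to 3 and 155, 256 and 167 CPM in Control replicates 1 to 3. Control replicate 2 lay above CPI-613 replicate 2, so the groups overlapped, and the estimate did not pass the test over all genes (log2 fold change 0.68, SE 0.26, 95% interval 0.07 to 1.30; edgeR, Benjamini-Hochberg adjusted p = 0.283). The estimate stayed above 0 in all 25 alternatives, between 0.15 and 0.95, and passed in 0 of them. Libraries also differed, within a group as well, in how far levels followed the GC content and length of transcripts. This trend alone, fitted over all genes, put MT2A at -0.52, 0.03 and 0.71 on the log2 scale in CPI-613 replicates 1 to 3 and at -0.17, 0.15 and -0.19 in Control replicates 1 to 3. For MT1X it gave -0.44, -0.04 and 0.62 in CPI-613 replicates 1 to 3 and -0.14, 0.10 and -0.10 in Control replicates 1 to 3.

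MT1E, metallothionein 1E on chromosome 16 at 56625781 to 56627112, measured 43.7, 23.1 and 22.5 CPM in CPI-613 replicates 1 to 3 and 33.9, 54.4 and 33.1 CPM in Control replicates 1 to 3. CPI-613 replicate 1 lay within the Control range and the other two CPI-613 libraries below it. The log2 fold change of -0.44 (SE 0.35, 95% interval -1.26 to 0.38) did not pass (edgeR, Benjamini-Hochberg adjusted p = 0.699). Both of its RefSeq transcripts were counted, with NM_175617 holding 553, 274 and 272 counts with CPI-613 and 410, 661 and 403 counts in Control.

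The metallothioneins were also set against one another within each library. Per 100 counts of MT2A there were 1.12, 0.825 and 1.21 counts of MT1X in CPI-613 replicates 1 to 3, against 14.1, 4.57 and 16 in Control replicates 1 to 3. Likewise there were 12, 9.55 and 6.92 counts of MT1E per 100 of MT2A in CPI-613 replicates 1 to 3, against 21.8, 21.2 and 19.8 in Control replicates 1 to 3. Both ratios were lower in every CPI-613 library than in every Control library. Against MT1E, MT1X had 9.3, 8.64 and 17.5 counts per 100 in CPI-613 replicates 1 to 3 and 64.8, 21.6 and 80.8 in Control replicates 1 to 3, again without overlap. These ratios were chosen after their values were seen, and no difference between the genes was tested. The summed level of the counted metallothioneins was 411, 268 and 353 CPM with CPI-613 and 212, 323 and 228 CPM in Control, with MT2A making up 88.4%, 90.4% and 92.4% of it in CPI-613 libraries and 73.4%, 79.3% and 73.5% in Control libraries.

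**Figure D3:**
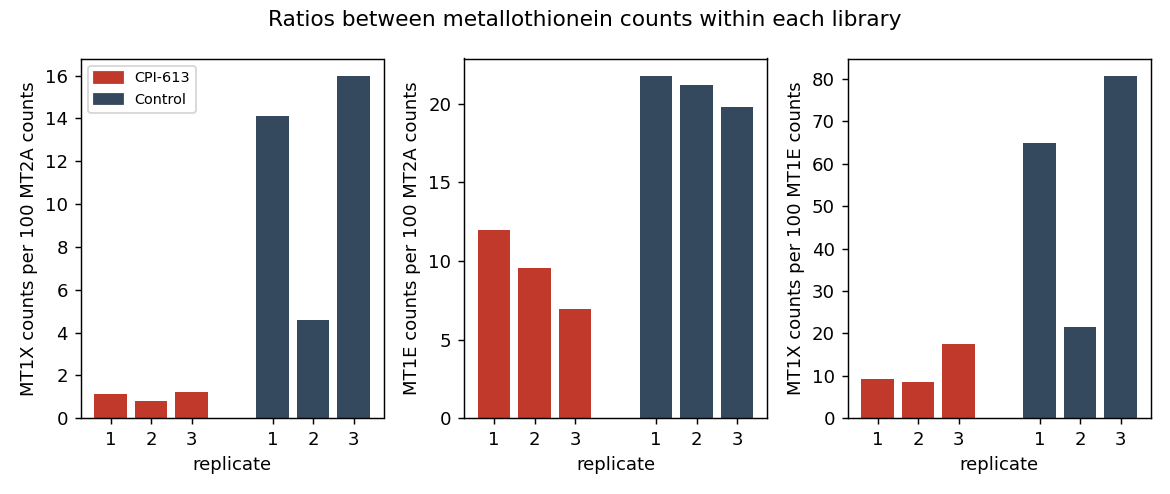
Counts of MT1X per 100 MT2A counts (left), of MT1E per 100 MT2A counts (middle) and of MT1X per 100 MT1E counts (right), 1 bar per library, with the 3 CPI-613 libraries in red and the 3 Control libraries in dark blue. All 3 ratios are lower in each CPI-613 library than in each Control library, and MT1X per 100 MT2A is 0.825 to 1.21 with CPI-613 and 4.57 to 16 in Control.

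Of 12 human metallothionein genes looked for, 5 were in the count table. Besides those above, MT1F had 1, 6 and 2 counts in CPI-613 replicates 1 to 3 and 7, 9 and 9 counts in Control replicates 1 to 3, too few to enter the test, and MT1H had 1 count in all libraries together. Both are named here outside the naming rule, to account for the family. MT1A, MT1B, MT1G, MT1HL1, MT1M, MT3 and MT4 were not analysed here. Because metallothionein mRNAs resemble one another, their GENCODE 29 transcripts were compared. Of the distinct 50-base stretches of MT1X 8.28% occurred in other genes or pseudogenes of the family, and 4.24% for MT2A and 7.1% for MT1E. For stretches of 100 bases the share was 0% in each of the 3 genes. MT1X also shares 30.8% of its 100-base stretches with AC026461.1, a noncoding transcript annotated on the same strand over the same locus. The labels state neither the read length nor how shared reads were treated.

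MTF1, the transcription factor on chromosome 1 at 37809574 to 37859592, measured 29.8, 29.9 and 15.3 CPM in CPI-613 replicates 1 to 3 and 25.2, 21.5 and 26.6 CPM in Control replicates 1 to 3. CPI-613 replicate 3 was below all others and the groups overlapped. The log2 fold change was 0.03 (SE 0.31, 95% interval -0.70 to 0.76), turned below 0 in 11 of 25 alternatives, and did not pass (edgeR, Benjamini-Hochberg adjusted p = 0.977).

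SLC31A1, the copper importer CTR1 on chromosome 9 at 113221544 to 113264492, measured 70.2, 93 and 96.5 CPM in CPI-613 replicates 1 to 3 and 73.8, 76.9 and 77 CPM in Control replicates 1 to 3. CPI-613 replicate 1 lay below the narrow Control range and the other two CPI-613 libraries above it. Its log2 fold change was 0.19 (SE 0.19, 95% interval -0.25 to 0.63; edgeR, Benjamini-Hochberg adjusted p = 0.764) and turned to -0.02 when scaled by library size only.

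The copper pump ATP7A lies on chromosome X at 77910693 to 78050395 and measured 8.56, 5 and 1.86 CPM in CPI-613 replicates 1 to 3 and 9.64, 4.35 and 12.2 CPM in Control replicates 1 to 3. The log2 fold change of -0.76 had a wide interval (SE 0.59, -2.16 to 0.63; edgeR, Benjamini-Hochberg adjusted p = 0.688). The trend on GC content and length alone put ATP7A at 0.70, -0.22 and -1.27 on the log2 scale in CPI-613 replicates 1 to 3 and at 0.43, -0.17 and 0.53 in Control replicates 1 to 3. With the trend removed the log2 fold change was -0.39 (SE 0.24; edgeR, Benjamini-Hochberg adjusted p = 0.36, within a range of 0.137 to 0.999 over the alternatives).

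The second pump, ATP7B on chromosome 13 at 51932669 to 52012132, measured 2.21, 3.46 and 2.63 CPM in CPI-613 replicates 1 to 3 and 4.15, 2.87 and 3.59 CPM in Control replicates 1 to 3, with overlap (log2 fold change -0.35, SE 0.30, 95% interval -1.06 to 0.35; edgeR, Benjamini-Hochberg adjusted p = 0.715). The authors' counter assigned its reads to different transcripts in different libraries, NM_001243182 with 31 counts in CPI-613 replicate 1 and NM_001330578 with 53 counts in Control replicate 1. In those 2 libraries no other ATP7B transcript had a count, so the transcripts of ATP7B were not compared.

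Both copper chaperones overlapped between the groups. ATOX1, on chromosome 5 at 151742822 to 151758631, measured 19.8, 21.4 and 38.5 CPM in CPI-613 replicates 1 to 3 and 23.4, 32.1 and 24.7 CPM in Control replicates 1 to 3 (log2 fold change -0.01, SE 0.32, 95% interval -0.76 to 0.75; edgeR, Benjamini-Hochberg adjusted p = 0.994). CPI-613 replicate 3 held the highest value and CPI-613 replicate 1 the lowest, and the estimate was not below 0 in 11 of 25 alternatives. CCS, on chromosome 11 at 66593185 to 66606019, measured 24.1, 32.5 and 38.5 CPM in CPI-613 replicates 1 to 3 and 20.6, 29.4 and 23.4 CPM in Control replicates 1 to 3. Its log2 fold change of 0.37 (SE 0.27, 95% interval -0.25 to 1.00) stayed above 0 in all 25 alternatives and passed in 0 of them (edgeR, Benjamini-Hochberg adjusted p = 0.646). For CCS the trend on GC content and length gave -0.46, 0.08 and 0.63 on the log2 scale in CPI-613 replicates 1 to 3, the order of its CPM there, and -0.18, 0.15 and -0.22 in Control replicates 1 to 3. With this trend removed the CCS estimate was 0.20 (SE 0.16).

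FDX1, on chromosome 11 at 110429331 to 110464884, measured 14.8, 14.6 and 16.7 CPM in CPI-613 replicates 1 to 3 and 12.1, 17.2 and 13.3 CPM in Control replicates 1 to 3. The CPI-613 values lay within the Control range (log2 fold change 0.11, SE 0.24, 95% interval -0.46 to 0.68; edgeR, Benjamini-Hochberg adjusted p = 0.875). The intervals of these 7 genes outside the metallothioneins reached at most 1.00 upward and -2.16 downward on the log2 scale, and each of the 7 intervals included 0.

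**Figure D4:**
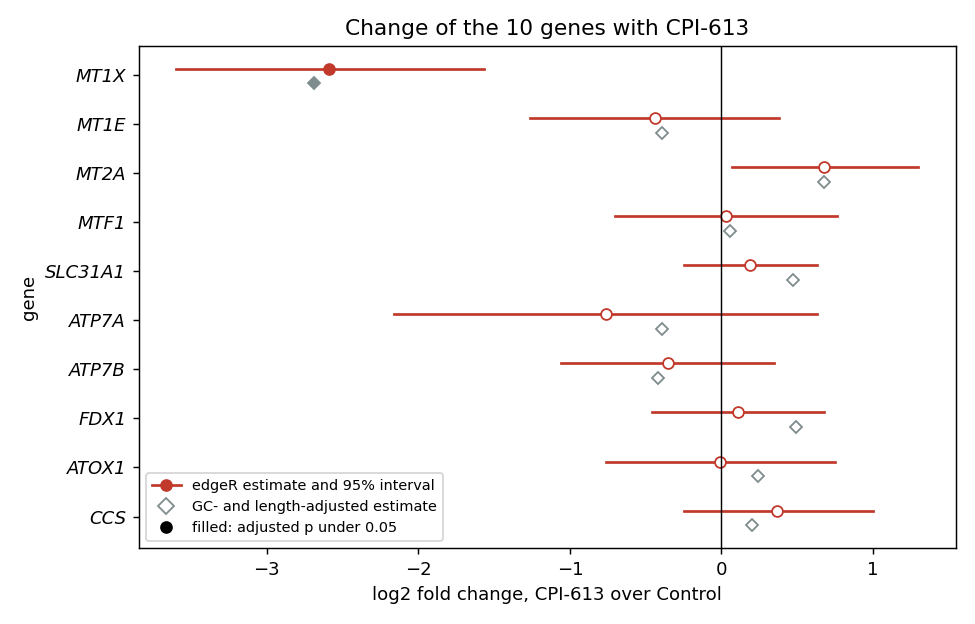
Log2 fold change (CPI-613 over Control) of the 10 genes with the 95% interval of the edgeR fit (red) and the estimate adjusted for GC content and length (grey diamond), filled where the adjusted p is under 0.05. MT1X is past the threshold in both fits (-2.59 and -2.69), and the interval of MT2A alone among the others leaves out 0.

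With the GC and length trend removed, 1 of the 10 genes was lower and 0 higher, while 11.6% of all genes were called, 6.63% higher and 5% lower. MT1X was that gene, with a log2 fold change of -2.69 (SE 0.47; edgeR, Benjamini-Hochberg adjusted p = 0.0107). MT2A kept an estimate of 0.68 (SE 0.34) and MT1E of -0.39 (SE 0.45) in this fit, and neither passed. Removing the trend raised the SE of MT1X, MT2A and MT1E, from 0.43, 0.26 and 0.35, and that of SLC31A1, FDX1 and ATOX1. It lowered the SE of MTF1, ATP7A, ATP7B and CCS.

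The genes whose pattern over the 6 libraries was most like MT2A, by Pearson's correlation of log2 CPM over 10859 genes whose log2 CPM averaged 2 or more, were SVIP (r = 0.997), PLEKHN1 (r = 0.965) and FAM219A (r = 0.961). SVIP measured 19.9, 17.4 and 19.6 CPM with CPI-613 and 14.7, 17.7 and 15.4 CPM in Control. Most like MT1X were BCL11A (r = 0.988), NR6A1 (r = 0.987) and SYT15 (r = 0.98). SYT15 measured 3.14, 2 and 2.56 CPM with CPI-613 and 13.6, 11.9 and 18 CPM in Control. SYT15 passed the test (log2 fold change -2.49; edgeR, Benjamini-Hochberg adjusted p = 0.0111) and the other 5 genes did not. These correlations describe 6 libraries, in which all genes share the group difference and the depth of each library.

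Further genes were taken from lists, some of which hold genes described above. Of 24 genes of copper transport and chaperones 23 were tested, and 0 passed in either direction, with a median log2 fold change of -0.01. SLC31A1, ATP7A, ATP7B, ATOX1 and CCS are 5 of these 23, and of the other 18 likewise 0 passed. At an unadjusted p under 0.05, 0 of the 23 were higher and 1 lower, and 0 passed in DESeq2, which called 7.05% of all genes. In edgeR 3.18% of all genes passed and 14.4% had an unadjusted p under 0.05. SLC25A3, the mitochondrial phosphate and copper carrier, measured 468 ± 126 CPM with CPI-613 and 365 ± 45.8 CPM in Control (SD, n = 3). SOD1, the copper-zinc superoxide dismutase that CCS loads, measured 192 ± 42.7 CPM with CPI-613 and 178 ± 25.8 CPM in Control (SD, n = 3). Neither passed.

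Of 17 copper-dependent enzymes 10 were tested, 1 fell, 0 rose and 9 did not pass. Before adjustment, 2 were higher and 4 lower with p under 0.05. Of all genes tested, 3.18% were called and 14.4% had an unadjusted p under 0.05, 8.45% higher and 5.93% lower. LOXL4, a lysyl oxidase that crosslinks collagen and elastin, had 1, 1 and 2 counts in CPI-613 replicates 1 to 3 and 70, 30 and 68 counts in Control replicates 1 to 3. The ratio of its scaled counts, CPI-613 over Control, was 0.0231, with an exact binomial 95% interval of 0.00622 to 0.0602 that covers counting error only (edgeR, Benjamini-Hochberg adjusted p = 0.0072). The call ended without CPI-613 replicate 2, Control replicate 1 or Control replicate 3 (edgeR adjusted p of 0.0635 to 0.0673). Those fits called 7, 0 and 0 of all genes in that order. With the GC and length trend removed as well, an addition chosen after seeing the data, LOXL4 passed whichever library was left out (edgeR adjusted p of 0.0013 to 0.0156). Its relative LOXL2, named after its values were seen, measured 70.5, 97.2 and 145 CPM with CPI-613 and 316, 228 and 300 CPM in Control, and did not pass (log2 fold change -1.43, SE 0.29; edgeR, Benjamini-Hochberg adjusted p = 0.0519). LOXL2 passed in 18 of 25 alternatives, with an estimate of -1.79 to -1.21 over all of them and adjusted p of 0.000342 to 0.262. Among those in which it passed were DESeq2, limma-voom, the other scalings, the FPKM fits and the removal of the GC and length trend, where 2 of the 10 enzymes were lower. That last fit called 11.6% of all genes, 5% lower.

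Among 18 genes of lipoylation and the lipoylated complexes, the pathway of FDX1 and the target class of CPI-613, 18 were tested, FDX1 among them, and 0 passed in edgeR, 0 had an unadjusted p under 0.05 and 0 passed in DESeq2. The shares of all genes were 3.18%, 14.4% and 7.05% in that order. The median log2 fold change was -0.04. OGDH, the first enzyme of the 2-oxoglutarate dehydrogenase complex, measured 354 ± 106 CPM with CPI-613 and 243 ± 38.6 CPM in Control, and DLST, its lipoylated subunit, 148 ± 22.1 CPM with CPI-613 and 109 ± 14.4 CPM in Control (SD, n = 3). OGDH was the 1 gene of the list called in any alternative, with the trend removed and CPI-613 replicate 1 left out (0.51, edgeR adjusted p = 0.0383, with 0.0383 to 0.997 over the alternatives).

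Zinc transporters were described because zinc drives MTF1. Of 24 genes 18 were tested, 1 rose, 0 fell and 17 did not pass, with a median log2 fold change of 0.03. Before adjustment, 2 were higher and 0 lower with p under 0.05. The shares of all genes were 3.18% called and 14.4% with an unadjusted p under 0.05, 8.45% higher and 5.93% lower. SLC39A14, the zinc, iron and manganese importer ZIP14, rose to 274, 330 and 313 CPM in CPI-613 replicates 1 to 3, against 147, 171 and 154 CPM in Control replicates 1 to 3 (log2 fold change 0.96, SE 0.17; edgeR, Benjamini-Hochberg adjusted p = 0.0313). This call ended without CPI-613 replicate 2 or without any 1 of the 3 Control libraries (edgeR adjusted p of 0.0518 to 0.232), and also with the replicate block. The fits without CPI-613 replicate 2 and without Control replicates 1, 2 and 3 called 7, 0, 219 and 0 of all genes. With the trend removed as well, an addition chosen after seeing the data, SLC39A14 passed whichever library was left out. With the GC and length trend removed, in a fit that called 11.6% of all genes, 6.63% higher, 4 of the 18 were higher. SLC30A1, the zinc exporter that MTF1 controls, was among them at 1.12 (SE 0.25; edgeR, Benjamini-Hochberg adjusted p = 0.0263), and without that correction was 0.69 (SE 0.34; edgeR, Benjamini-Hochberg adjusted p = 0.446). SLC30A1 passed in 4 of 25 alternatives, with adjusted p of 0.0098 to 0.948, and with the trend removed it did not pass without CPI-613 replicate 2, Control replicate 1 or Control replicate 3 (edgeR adjusted p of 0.095 to 0.129). Its CPM were 32.9, 22 and 13.6 with CPI-613 and 14.3, 14.3 and 13.8 in Control, so that CPI-613 replicate 3 lay below the Control range. SLC30A1 was named after its values were seen.

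Of 12 metal-inducible stress genes 12 were tested, 1 rose, 0 fell and 11 did not pass, with a median log2 fold change of 0.52. Before adjustment, 4 were higher and 0 lower with p under 0.05. Among all genes tested, 3.18% were called and 14.4% had an unadjusted p under 0.05, 8.45% higher and 5.93% lower. SLC7A11, the cystine importer, measured 178, 85.9 and 48.2 CPM with CPI-613 and 22, 22.3 and 21 CPM in Control. Its adjusted p of 0.0498 by edgeR stood at the threshold, and it passed in 14 of 25 alternatives. HMOX1, heme oxygenase 1 and a common target of heavy metals, was named after its values were seen and measured 9.06, 13.9 and 24.6 CPM with CPI-613 and 9.64, 5.67 and 10.9 CPM in Control, with overlap. Of the 12 stress gene estimates 9 lay above 0. Below 0 were HSPA1A (-0.26), HSPA1B (-0.25) and HSPH1 (-0.61), which code for heat shock proteins. They did not pass (edgeR, Benjamini-Hochberg adjusted p of 0.777 to 0.781) and were named after their values were seen. Of 8 glucocorticoid response genes 7 were tested, 1 rose, 0 fell and 6 did not pass, with a median of 0.72. Before adjustment, 4 of these were higher and 1 lower with p under 0.05. The lower one was KLF9 (log2 fold change -2.15; edgeR, Benjamini-Hochberg adjusted p = 0.151), with 11, 8 and 2 counts with CPI-613 and 35, 13 and 43 counts in Control. FKBP5 was at -0.12, and 5 of the 7 estimates lay above 0. KLF9 and FKBP5 were named after their values were seen. TSC22D3, the glucocorticoid-induced leucine zipper, rose to 41.1, 52.2 and 71 CPM with CPI-613, against 23.4, 14.4 and 18.9 CPM in Control (log2 fold change 1.53, SE 0.30; edgeR, Benjamini-Hochberg adjusted p = 0.0432), and passed in 18 of 25 alternatives. Without CPI-613 replicate 2 or without any 1 of the 3 Control libraries neither SLC7A11 nor TSC22D3 passed in the uncorrected fit (edgeR adjusted p of 0.103 to 0.24). Those fits called 7 of all genes without CPI-613 replicate 2, and 0, 219 and 0 without Control replicates 1, 2 and 3. With the trend removed as well, an addition chosen after seeing the data, both genes passed whichever library was left out. With the GC and length trend removed 4 of the 12 stress genes were higher and 0 lower. In that fit 4 of the 7 glucocorticoid response genes were higher and 1, KLF9, lower (edgeR, Benjamini-Hochberg adjusted p = 0.0383). It called 11.6% of all genes, 6.63% higher and 5% lower.

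**Figure D5:**
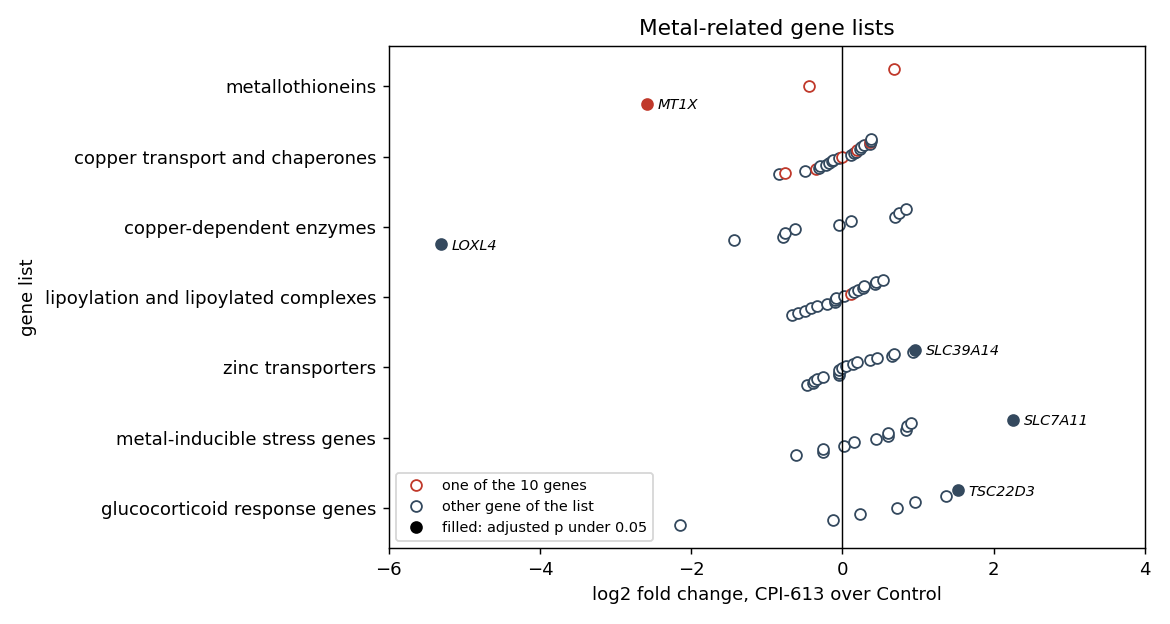
Log2 fold change (CPI-613 over Control) of the tested genes of each list, 1 point per gene, red for the 10 genes described here and dark for the others, filled and named where the edgeR adjusted p is under 0.05. The filled points are MT1X and LOXL4 below 0 and SLC39A14, SLC7A11 and TSC22D3 above 0.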

How the data were processed

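Estimated counts of 79031 RefSeq transcripts, from 16330 genes, make up the count table deposited by the authors, and many are not whole. The other deposited table holds values per gene without a named unit. They were taken as FPKM, made by the authors before deposit, because over 904 genes with 1 transcript the length they imply varied by a median of 0.286% between libraries. Per the submitters' processing notes the build was hg38, and the tools listed there, with no role, are STAR 2.5, edgeR 3.16.5, CASAVA, HTSeq and DESeq2. For the counter, annotation release and strand setting, nothing was given in the sources used here. In 27 transcripts 1 cell holds a date in place of a number, and these were left out, with 0 of the 10 genes touched.

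Counts were summed per gene and rounded. Counts of 53 genes that lack a symbol came to 0.0163%. With filterByExpr (minimum count 10, total 15) and TMM scaling in edgeR 4.0.16, the quasi-likelihood test compared 3 CPI-613 with 3 Control libraries, adjusted over 12671 genes. The standard error is the size of the log2 fold change over the square root of F. CPM are per TMM-scaled library. No pair of libraries in a group agreed within counting noise. Chi-square per degree of freedom was 3.86 to 43.7 between Control libraries and 54.7 to 200 between CPI-613 libraries, highest for CPI-613 replicates 1 and 3. Precision is set by 3 libraries per group at 11531942 to 15486513 counts. The GC and length correction removed each library's spline trend (5 degrees of freedom each) on GC content and length of the longest protein-coding GENCODE 29 transcript, known for 99.34% of tested genes. Alternatives were other scalings and filters, DESeq2 1.42.0, limma 3.58.1 (voom on counts, and FPKM on a log2 scale with a pseudocount of 1 or 0.1), a replicate block and each library left out. The scripts were tested on simulated data.

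The 10 genes and all lists were chosen with earlier results of these data known. The text names the 10 genes, every metallothionein with at least 10 counts in some library, up to 4 called genes per list or else the 2 with the highest mean CPM, and the 3 genes most correlated with MT2A and with MT1X.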

Additional observations from a re-analysis of the deposited data

How the results depend on the processing

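Of the 10 genes 1, MT1X, was called in every alternative that kept all 6 libraries. Leaving out a library gave 0 to 1 calls, and 0 to 3 with the GC and length trend removed as well, an addition chosen after seeing the data. In that addition MT1E (-1.10, edgeR adjusted p = 0.0187, with 0.0187 to 0.997 over the alternatives) and SLC31A1 (0.76, edgeR adjusted p = 0.044, with 0.044 to 0.999 over the alternatives) joined MT1X without CPI-613 replicate 1, and MT1X missed the threshold without CPI-613 replicate 2 (edgeR adjusted p = 0.0549).

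Over all genes 403 were called, against 893 with DESeq2, 191 with the replicate block, 1474 with the GC and length trend removed and 890 with that and the block. Leaving out a library gave 905, 7 and 657 calls without CPI-613 replicates 1, 2 and 3, and 0, 219 and 0 without Control replicates 1, 2 and 3. With the trend removed as well, the calls were 2654, 605 and 1438 without CPI-613 replicates 1, 2 and 3. They were 618, 1424 and 645 without Control replicates 1, 2 and 3. In these fits with the trend removed the copper transport list had 0 to 2 calls and the zinc transporters 1 to 8. The labels do not say whether libraries with the same replicate number belong together. Deviations from the group means correlated at 0.457, -0.096 and -0.608 for replicates 1, 2 and 3, and at -0.661 to 0.675 for libraries with different numbers. These deviations include each library's GC and length trend, so they cannot decide whether the libraries were paired. With the replicate block MT1X had a log2 fold change of -2.58 (edgeR adjusted p = 0.0272), and SLC39A14 (edgeR adjusted p = 0.127), SLC7A11 (0.0598) and TSC22D3 (0.109) were not called. With the block and the trend removed together SLC30A1 was not called (edgeR adjusted p = 0.0507).

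Estimates near 0 changed sign. MTF1 was -0.06 by upper quartile, -0.13 by library size only, -0.02 by limma-voom and -0.02 with the block, -0.19, -0.27 and -0.19 in the FPKM fits, and -0.11 to 0.29 with a library left out (-0.05 to 0.21 with the trend removed). SLC31A1 was -0.02 by library size only and in all 3 FPKM fits. FDX1 was -0.08 by library size only and -0.06, -0.07 and -0.06 in the FPKM fits. ATOX1 was 0.00 without a filter, 0.24 with the trend removed, 0.07 with that and the block, and -0.37 to 0.17 with a library left out (-0.45 to 0.54 with the trend removed, including 0.46 without CPI-613 replicate 2 and 0.12, 0.50 and 0.13 without Control replicates 1, 2 and 3). For ATOX1 the trend was taken at the longest transcript, of 4341 bases, while the transcript counted has 488 bases. Its values with the trend removed therefore rest on a length that is not that of the counted transcript. The lengths used for MT2A and CCS, 786 and 1430 bases, exceeded those implied by their FPKM by 619 and 601 bases. Over 895 genes with a single transcript the median was 266 bases (quartiles 236 and 341). Whether the trend values of MT2A and CCS also rest on an unsuitable length was not tested. SOD1 was 0.00 by upper quartile, -0.1 by library size only, -0.11 in all 3 FPKM fits, and -0.06 to 0.26 with a library left out (-0.03 to 0.30 with the trend removed). LOXL4 gave no value in the fit of FPKM of at least 1, nor did ATP7A and ATP7B. The causes were not tested.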
